A study of Caenorhabditis elegans with 8 samples.

Results

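Caenopores are the saposin-like proteins of *Caenorhabditis elegans*, encoded by the spp genes. The members described here are 10 genes named by symbol (spp-1, spp-2, spp-3, spp-5, spp-8, spp-9, spp-10, spp-12, spp-14 and spp-18), read from every probe set to which the array's platform annotation gives a single one of these symbols. By that rule 6 of the 10 genes had probe sets of their own, 10 probe sets in all among the 22548 non-control probe sets of the array. The other 4 genes (spp-2, spp-3, spp-5 and spp-9) were annotated only to 3 probe sets that carry several symbols, so their signal is given as shared and is assigned to no gene. All 10 member probe sets passed the filter on dim probe sets, which kept 15783 for testing.

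Messenger RNA of whole adults was measured on Affymetrix arrays in 4 strains, each fasting and fed, with 1 array for each of the 8 groups. The mutants were drsh-1(ok369), in the gene for Drosha, which cuts primary microRNA transcripts in the nucleus; ain-1(tm3681), in a gene whose GW182-type product works with Argonaute to silence microRNA targets; and daf-16(mu86), in the gene for the FOXO factor downstream of insulin signalling. Wild type was N2. The fasting groups were thus drsh-1, ain-1, daf-16 and wild type without bacteria, and the fed groups were the same 4 strains on UV-killed *Escherichia coli* OP50. All animals, controls included, grew at 20 °C, were kept on FUDR, a drug that blocks the production of progeny, were moved to the final plates on day 2 and were collected as day 4 adults. The bacteria offered were therefore dead in the fed groups.

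Saposin-like proteins are small, compact proteins held by disulfide bonds that bind or disturb lipid membranes. The caenopores are related to the amoebapores of amoebae and to NK-lysin and granulysin of mammalian lymphocytes, and those studied as proteins kill bacteria by making their membranes leaky. They are best known from the intestine, the organ that takes up bacteria as food and meets them as pathogens. SPP-5 is a pore former that takes part in killing ingested bacteria in the intestine. SPP-1 is an antibacterial caenopore whose gene is among those reported to be controlled by insulin signalling. SPP-12 is a pore former made in pharyngeal neurons, and spp-9 has served as a reporter gene of the DBL-1 pathway, the TGF-beta type pathway that controls body size.

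The values below are array intensities on the linear scale on which they were deposited. Changes are differences of log2(intensity + 16), a scale that shrinks the changes of dim probe sets. Tests came from an additive model of strain and food fitted with limma over all 8 arrays, with p-values adjusted by the method of Benjamini and Hochberg over the 15783 probe sets, and a call is an adjusted p under 0.05. No group had a replicate array and no label speaks of separate cultures. The p-values therefore measure only how far these 8 arrays spread around the additive model. That spread may be technical, and it also takes in any difference between strains in their response to food. Without replicate arrays these parts cannot be told apart, so a missing call may reflect either of them. Because probe sets differ in how brightly they respond, levels were not compared between probe sets. In whole animals, fewer cells of a type and less RNA per cell cannot be told apart.

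The arrays had similar median intensities over all probe sets, controls included, between 35.3 and 37.8. The fasting daf-16 array stood apart on some control probe sets. The added dap control read 178 there, against 70.1 to 91.8 on the other 7 arrays, and the ratio of the 3′ to the 5′ probe set of the catalase control was 3.4 there, against 1.47 to 1.79. Other controls hardly set it apart. The same ratio of the actin control was 2.11, against 1.54 to 2.06. The 3′ catalase probe set read 164.5, within the range of 164.1 to 375.8 on the other arrays. For the targeted genes, a drsh-1 probe set read 17.1 fasting and 14 fed in drsh-1, against 185 and 183 in wild type, and a daf-16 probe set read 8.98 fasting and 9.27 fed in daf-16, and wild type 69.5 and 76.4 on that probe set. The ain-1 probe sets lay between 0.72 and 0.99 times the wild-type level in ain-1, and a second drsh-1 probe set was 5.19 and 5.78 times the wild-type level in fasting and fed drsh-1. No source used here places these probes against the deleted segments, and the ain-1 label is therefore unchecked.

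spp-1 was bright on every array with its main probe set (the first of a pair by mean intensity). Fasting animals read 466 in drsh-1, 1347 in ain-1, 1898 in daf-16 and 1645 in wild type. Fed animals read 813 in drsh-1, 1538 in ain-1, 1249 in daf-16 and 1415 in wild type. Both drsh-1 arrays were below all 6 others, and the fasting and fed arrays overlapped. How many of all probe sets show such placements of strains was not counted, except where a share is given below. A second spp-1 probe set was dim throughout, between 17.7 and 26.7.

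spp-8 had a pair of probe sets that ran together over the arrays (Pearson r = 0.997 over 8 arrays that share strains and food, given as a description). On the first, the brighter by mean intensity, fasting animals read 74.4 in drsh-1, 137 in ain-1, 313 in daf-16 and 287 in wild type. Fed animals read 166 in drsh-1, 211 in ain-1, 703 in daf-16 and 626 in wild type. The fasting array was the lower of the pair in all 4 strains, and the drsh-1 and ain-1 arrays lay below all daf-16 and wild-type arrays. The second probe set gave the same order of the 8 arrays.

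spp-10 had 3 probe sets, called the first, the second and the third by mean intensity, that did not behave alike. On the first, fasting animals read 1997 in drsh-1, 2443 in ain-1, 2275 in daf-16 and 2628 in wild type, and fed animals read 2026 in drsh-1, 2717 in ain-1, 2228 in daf-16 and 2856 in wild type. On the third, fasting animals read 333 in drsh-1, 406 in ain-1, 508 in daf-16 and 549 in wild type, and fed animals read 690 in drsh-1, 1701 in ain-1, 1960 in daf-16 and 1714 in wild type. The first hardly moved with food, while on the third every fasting array was below every fed array. The second probe set ranged from 1926 to 2643 and followed the first (r = 0.87 over 8 arrays) more closely than the third did (r = 0.49). RefSeq lists 2 transcripts for spp-10. Which transcript each probe set reads was not tested.

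**Figure D1:**
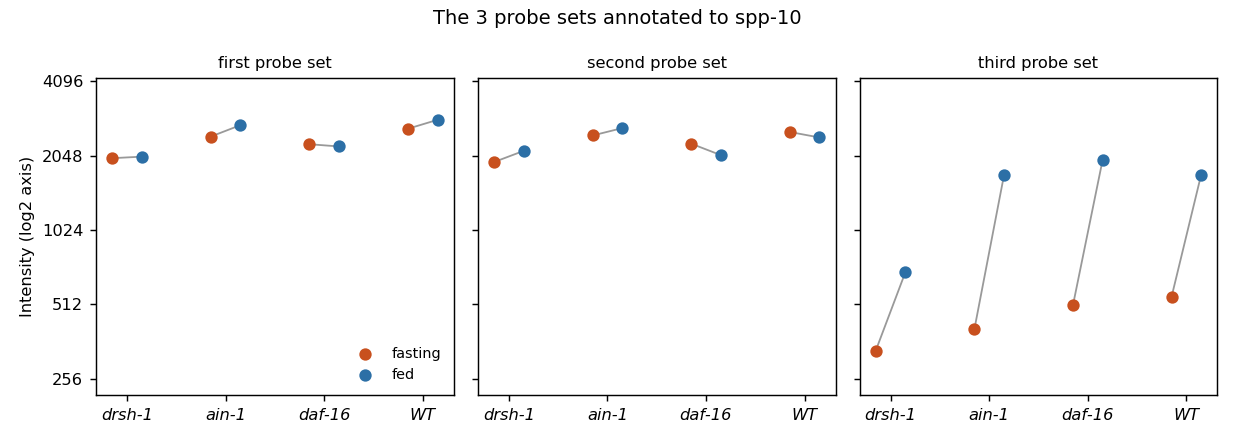
The 3 spp-10 probe sets, one per panel: vertical axis, intensity on a log axis to the base 2 that the panels share; horizontal axis, the strains, with the fasting array (orange) left of the fed array (blue) and 1 point per array. Only the third separates all fasting from all fed arrays, at 333 to 549 against 690 to 1960.

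spp-12 had a single, dim probe set. Fasting animals read 66.2 in drsh-1, 34.1 in ain-1, 22.4 in daf-16 and 35.3 in wild type. Fed animals read 63.2 in drsh-1, 123 in ain-1, 81.6 in daf-16 and 54.9 in wild type. The fasting array was the lower of its pair in ain-1, daf-16 and wild type, and the pair in drsh-1 was nearly level.

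spp-14 read 269 in fasting drsh-1, 940 in fasting ain-1, 996 in fasting daf-16 and 943 in fasting wild type. Fed animals read 860 in drsh-1, 1692 in ain-1, 1039 in daf-16 and 1340 in wild type. The fasting array was the lower of the pair in all 4 strains, by little in daf-16 and by most in drsh-1.

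spp-18 read 380 in fasting drsh-1, 200 in fasting ain-1, 747 in fasting daf-16 and 234 in fasting wild type. Fed animals read 362 in drsh-1, 1053 in ain-1, 1917 in daf-16 and 1122 in wild type. The 3 strains other than drsh-1 were much lower fasting than fed, and the drsh-1 pair was nearly level at an intermediate value. RefSeq lists 2 transcripts for spp-18 as well, and the array has a single spp-18 probe set.

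Among the probe sets that carry several symbols, the one annotated to spp-2 and spp-3 read 32.4 in fasting drsh-1, 781 in fasting ain-1, 741 in fasting daf-16 and 711 in fasting wild type. Fed animals read 352 in drsh-1, 1799 in ain-1, 1662 in daf-16 and 1633 in wild type. Both drsh-1 arrays were below all others, and the fasting drsh-1 array fell slightly below the median intensity of the arrays. In RefSeq (assembly WBcel235) spp-3, spp-2, spp-6, spp-4 and spp-5 follow each other with 0 other protein-coding genes between neighbours.

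The probe set annotated to spp-5 and T08A9.13 was bright on every array. Fasting animals read 1519 in drsh-1, 3222 in ain-1, 4085 in daf-16 and 3749 in wild type, and fed animals read 2999 in drsh-1, 4654 in ain-1, 3601 in daf-16 and 4827 in wild type. The probe set of the neighbouring genes spp-9 and spp-21 was dim. It read 23.2 in fasting drsh-1, 58.0 in fasting ain-1, 22.6 in fasting daf-16 and 27.7 in fasting wild type, and 23.8, 117, 93.2 and 43.8 in the same strains fed.

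**Figure D2:**
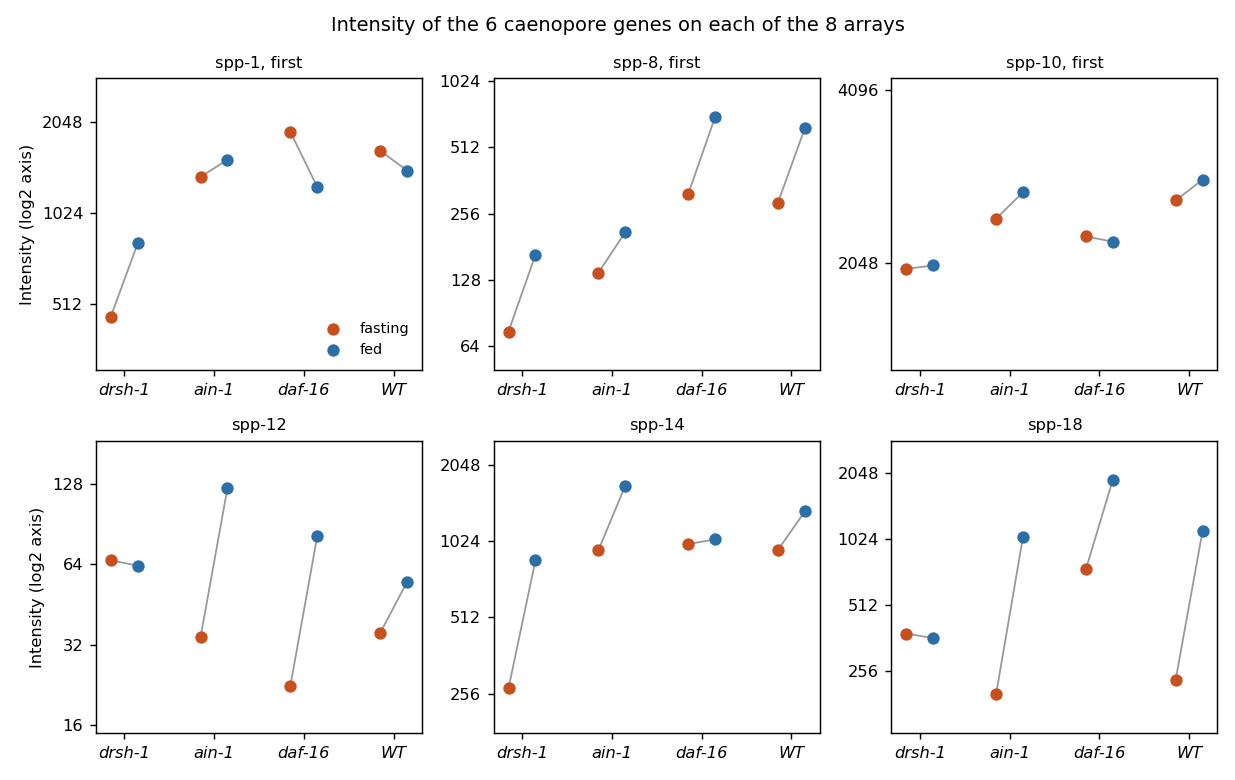
Intensity of the first (brightest) probe set of each of the 6 members with probe sets of their own, one per panel; vertical axis, intensity on a log axis to the base 2 whose range differs between panels; horizontal axis, the strains, with the fasting array (orange) left of the fed array (blue), 1 point per array and no error bars. In spp-8 fasting lies below fed in all 4 strains, whereas in spp-18 the drsh-1 pair is level at 380 fasting and 362 fed.

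Fasting was compared with feeding over all 4 strains in the additive model. Of the 10 member probe sets, 3 were called lower and 0 higher by limma, while 2.88% of all tested probe sets were called lower and 0.431% higher. Over all probe sets this balance moved with the processing, with 68 higher and 455 lower here, 313 and 595 with arrays centred on their medians and 2361 and 1415 without the drsh-1 pair. The 3 were both probe sets of spp-8 and the third of spp-10. Counting each gene by its brightest probe set, 1 of 6 members fell (spp-8), and the median change of the 6 was −0.78, against 0.01 over all tested probe sets.

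The fall of spp-8 was 1.93-fold on its brighter probe set (log2 change −0.95 ± 0.13, SE, limma adjusted p = 0.018) and 2.01-fold on the other (−1.01 ± 0.12, adjusted p = 0.010). It was present in each strain, with log2 changes of −1.01 in drsh-1, −0.56 in ain-1, −1.13 in daf-16 and −1.08 in wild type on the brighter probe set. The fall on the third spp-10 probe set was 3.12-fold (−1.64 ± 0.17, adjusted p = 0.0072). It was −1.02 in drsh-1, −2.02 in ain-1, −1.91 in daf-16 and −1.61 in wild type. It was the single member probe set on which the 4 fasting and the 4 fed arrays did not overlap, which 4.79% of all tested probe sets showed in the lower direction. Together with spp-8 and spp-14 it was lower in fasting in all 4 strains, as were 18.2% of all tested probe sets.

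The other spp-10 probe sets gave −0.07 ± 0.08 and −0.01 ± 0.09, with adjusted p of 0.60 and 0.97 in limma, so a fall of the size read by the third was not seen there. No call was made for spp-1 (−0.04 ± 0.21, adjusted p = 0.92), spp-12 (−0.81 ± 0.26, adjusted p = 0.10), spp-14 (−0.75 ± 0.24, adjusted p = 0.0999) or spp-18 (−1.44 ± 0.38, adjusted p = 0.077). At an unadjusted p under 0.05 there were 6 member probe sets, all lower, against 30% of all probe sets in either direction. Of the probe sets with several symbols, that of spp-2 and spp-3 was 3.06-fold lower in fasting (−1.61 ± 0.31, adjusted p = 0.045), that of spp-5 and T08A9.13 changed by −0.42 ± 0.17 (adjusted p = 0.16) and that of spp-9 and spp-21 by −0.71 ± 0.22 (adjusted p = 0.10). The change of spp-2 and spp-3 was −2.93 in drsh-1 and −1.19 to −1.15 in the other strains. Its call was lost with quantile normalization (limma adjusted p = 0.052), a pseudocount of 1 (0.055), no trend (0.078) or no strain block (0.375). Without the wild-type, ain-1 or daf-16 pair it was lost too (0.138 to 0.152). It held with no filter (0.044), centring (0.023), a pseudocount of 64 (0.024) and arrayWeights (0.0017), and without the drsh-1 pair (0.0011).

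Leaving out a strain moved the size of these falls little, while calls were lost in 3 of the 4 such fits. The third spp-10 probe set changed by −1.65 without the wild-type pair, −1.85 without drsh-1, −1.51 without ain-1 and −1.55 without daf-16, the pair that holds the array standing apart on some control probe sets. The first spp-8 probe set stayed between −1.07 and −0.89. With fewer arrays limma called 0 member probe sets without the wild-type pair (0.665% of all probe sets were called lower), 0 without daf-16 (0.596%) and 1 without ain-1 (0.71%), and the adjusted p of the third spp-10 probe set was 0.0502, 0.0557 and 0.039 in these fits. Without the drsh-1 pair 5 were called lower, against 8.97% of all probe sets, and these included spp-18 (−1.94 ± 0.20, adjusted p = 0.0026) and spp-12 (−1.10 ± 0.21, adjusted p = 0.015).

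**Figure D3:**
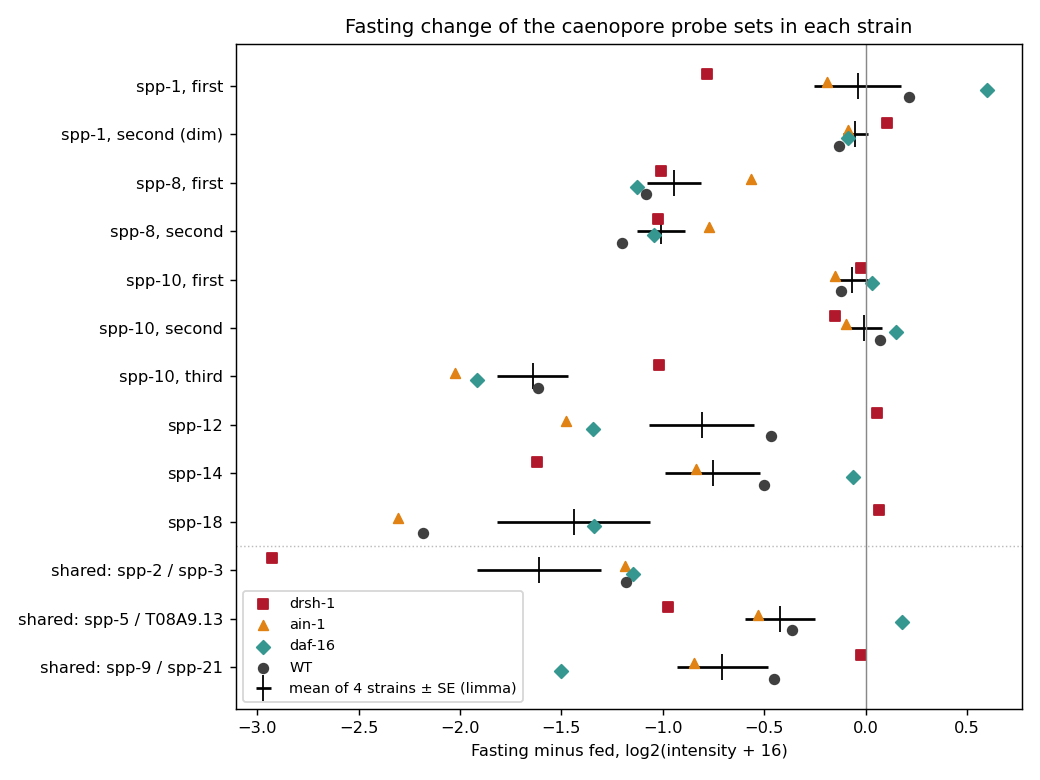
Fasting minus fed difference of log2(intensity + 16) for every probe set of the family, with 1 point per strain and, in black, the mean over the 4 strains with its SE from limma; horizontal axis, log2 difference, with 0 marked; probe sets with several symbols at the bottom. spp-8 and the third probe set of spp-10 lie below 0 in all strains, and for spp-18 drsh-1 stands near 0 at 0.07 while the other strains lie between −2.30 and −1.34.

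Within single strains, where each change compares 1 array with 1 array and has no test, 4 member probe sets were at least 2-fold lower in fasting drsh-1 (1.04% of all probe sets were), 3 in ain-1 (3.49%), 5 in daf-16 (5.01%) and 4 in wild type (3.36%). At least 2-fold higher were 0 of the 10 in drsh-1 (0.0317%), ain-1 (2.72%), daf-16 (7.17%) and wild type (2.58%). spp-18 had the greatest change in ain-1 and wild type, at 5.25-fold and 4.79-fold lower by intensity. In drsh-1 spp-14 was 3.20-fold lower, and the probe set of spp-2 and spp-3 was 10.9-fold lower.

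The fasting change of each strain was tested against that of the other 3. At an adjusted p under 0.05 limma called 0 of the 15783 probe sets for each of the 4 strains. At an unadjusted p under 0.05 were 13.6% of the probe sets for drsh-1, 1.09% for ain-1, 14.5% for daf-16 and 1.01% for wild type. In drsh-1 the change of spp-18 was 2.01 ± 0.41 above that of the other strains (limma adjusted p = 0.20), and that of spp-12 was 1.15 ± 0.41 above (adjusted p = 0.32). The drsh-1 change of spp-14 differed from that of the other strains by −1.16 ± 0.32 (adjusted p = 0.25), that of spp-1 differed by −0.99 ± 0.32 (adjusted p = 0.28), and that of the spp-2 and spp-3 probe set by −1.76 ± 0.20 (adjusted p = 0.13). For spp-8 the drsh-1 change differed by −0.08 ± 0.31 from the rest on the brighter probe set (adjusted p = 0.92).

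The drsh-1 mutant was compared with wild type over both foods. The part of the microRNA machinery in these differences was not tested. Of the 10 member probe sets, 5 were called lower and 0 higher, while 3.74% of all tested probe sets were called lower and 7.98% higher. Centring on array medians turned that balance over all probe sets, with 856 higher and 986 lower, against 1260 and 590 here. The 5 were both of spp-8, the main one of spp-1, and the first and the third of spp-10. At an unadjusted p under 0.05 there were 7, against 28.8% of all probe sets in either direction. By the brightest probe set 3 of the 6 genes were lower (spp-1, spp-8 and spp-10), and the median change was −0.83, against 0.00 over all tested probe sets.

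spp-8 had the greatest difference among the 6 members, 3.44-fold lower in drsh-1 (log2 change −1.78 ± 0.19, limma adjusted p = 0.0037), and it was −1.74 fasting and −1.82 fed. spp-1 was 2.44-fold lower (−1.29 ± 0.30, adjusted p = 0.041), by −1.78 fasting and −0.79 fed. spp-10 was 1.36-fold lower on the first probe set (−0.44 ± 0.11, adjusted p = 0.047) and 1.99-fold lower on the third (−1.0 ± 0.25, adjusted p = 0.047), with −0.29 ± 0.12 on the second (adjusted p = 0.17). Both drsh-1 arrays lay below both wild-type arrays on these probe sets of spp-1, spp-8 and the first of spp-10, a placement found for 28.5% of all tested probe sets. Uncalled probe sets showed it too, namely spp-14, the second of spp-10 and the dim one of spp-1, while spp-12 and spp-18 did not. On the third spp-10 probe set the fed drsh-1 array lay above the fasting wild-type array.

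The adjusted p of spp-14 was 0.066 (−1.19 ± 0.33), with differences of −1.75 fasting and −0.63 fed. spp-18 differed in sign between foods, at 0.66 fasting and −1.59 fed (−0.46 ± 0.53 over both, adjusted p = 0.61). spp-12 gave 0.68 fasting and 0.16 fed (0.42 ± 0.37, adjusted p = 0.49). The probe set of spp-2 and spp-3 was 8.21-fold lower (−3.04 ± 0.43, adjusted p = 0.0089), by intensity 22-fold lower fasting and 4.64-fold fed. That of spp-5 and T08A9.13 was 1.99-fold lower (−0.99 ± 0.24, adjusted p = 0.047), and that of spp-9 and spp-21 gave −0.37 ± 0.32 (adjusted p = 0.48).

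Without the ain-1 pair the calls for spp-1 (adjusted p = 0.083) and for the first and the third spp-10 probe sets (0.13 and 0.079) were lost, which left 2 member probe sets, both of spp-8. The differences themselves were the same, since that pair enters this comparison through its error alone. In the fit without that pair 305 of all tested probe sets were called lower and 635 higher. In single pairs 4 member probe sets were at least 2-fold lower in fasting drsh-1 than in fasting wild type (3.78% of all probe sets were) and 4 in fed drsh-1 than in fed wild type (3.35%).

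In the ain-1 mutant limma called 0 of 10 member probe sets against wild type, and 0.0444% of all tested probe sets were called lower. At an unadjusted p under 0.05 there were 2, both of spp-8 (5.85% of all probe sets). spp-8 was 2.36-fold lower in ain-1 on the brighter probe set (log2 change −1.24 ± 0.19, adjusted p = 0.19), with −0.98 fasting and −1.50 fed, and 2.41-fold lower on the other (−1.27 ± 0.17, adjusted p = 0.15). All ain-1 arrays of spp-8 lay below all wild-type arrays. The share of all probe sets with that placement was not counted for ain-1, so how common it is there is not known. The 5 other members had differences between −0.15 and 0.47 on their brightest probe sets, each with an adjusted p above 0.95. In single pairs the spp-8 probe sets were the 2 members at least 2-fold lower in fed ain-1 (0.437% of all probe sets were), and 1 of them passed in fasting ain-1 (0.697%). spp-12 read 123 in fed ain-1 against 54.9 in fed wild type, and 34.1 in fasting ain-1 against 35.3 in fasting wild type. The probe set of spp-9 and spp-21 was at 0.96 ± 0.32 (adjusted p = 0.68), with 2.10 times the wild-type intensity fasting and 2.68 times fed.

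In the daf-16 mutant limma called 0 of 10 member probe sets and 0% of all probe sets at an adjusted p under 0.05, with 1 member (the first probe set of spp-10) and 8.78% of all at an unadjusted p under 0.05. spp-18 had the largest difference among the members, 2.28-fold higher (1.19 ± 0.53, adjusted p = 0.60), with 1.61 fasting and 0.76 fed. It was the 1 member probe set at least 2-fold higher in fasting daf-16 (1.85% of all probe sets were), and 0 were in fed daf-16 (0.19%). spp-1 differed by 0.01 ± 0.30 (adjusted p = 0.996) and spp-8 by 0.14 ± 0.19 (adjusted p = 0.85). spp-1 was lower in daf-16 when centred on array medians or quantile normalized (−0.02 and −0.03), so its direction is not settled. The array that stands apart on some control probe sets enters the fasting values and those over both foods, and not the fed ones.

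**Figure D4:**
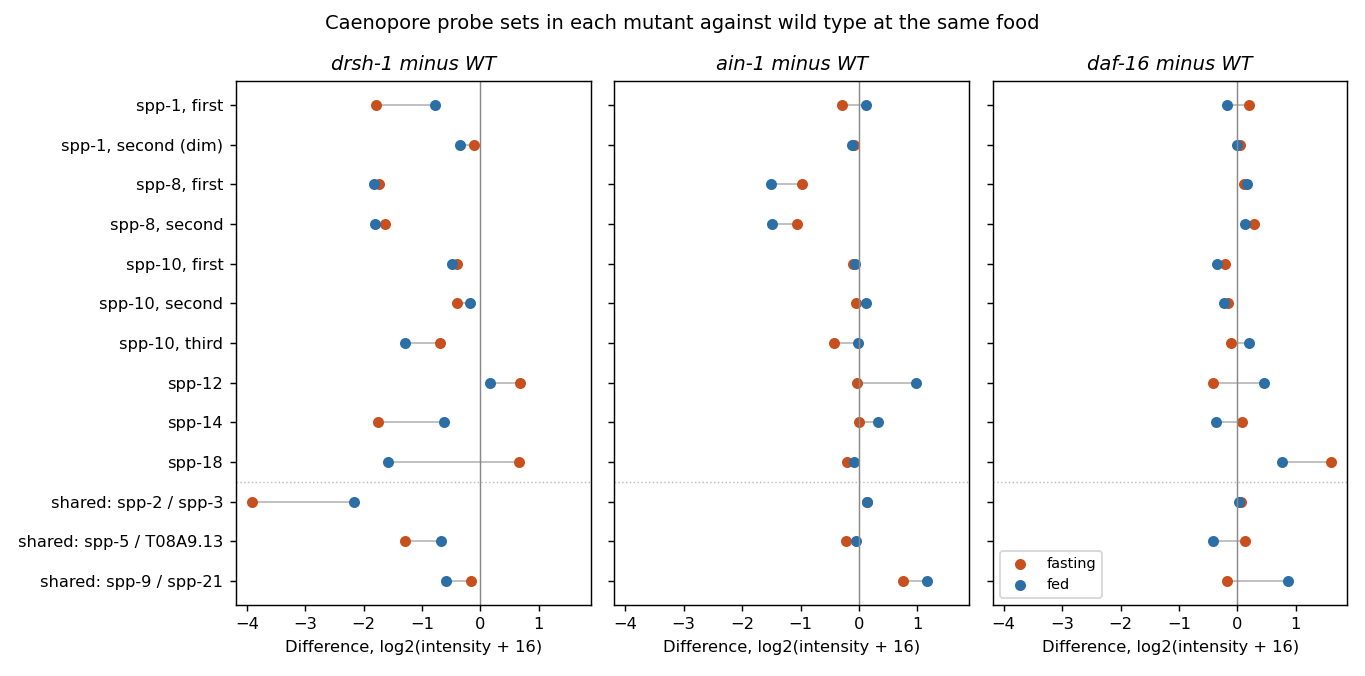
Mutant minus wild type difference of log2(intensity + 16), with 1 panel per mutant, fasting pairs in orange and fed pairs in blue; horizontal axis, log2 difference, with 0 marked; 1 array against 1 array for each point. In drsh-1 and ain-1 the spp-8 points lie between −1.82 and −0.98 at both foods, whereas in drsh-1 spp-18 lies on opposite sides of 0 for the 2 foods.

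The members did not share a single pattern over the arrays. The lowest array was fasting drsh-1 for the main probe set of spp-1 and for spp-8, spp-10 and spp-14, which 15% of all tested probe sets showed, but fasting daf-16 for spp-12 and fasting ain-1 for spp-18. As a description over 8 arrays, spp-14 ran closest to the probe set of spp-5 and T08A9.13 (r = 0.97) and to that of spp-2 and spp-3 (r = 0.96), and spp-1 also ran with the spp-5 and T08A9.13 probe set (r = 0.90). The arrays share strains and food, and genes are not independent.

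Outside the members, the genes whose log2 values over the 8 arrays had the highest Pearson correlation with each member were taken as most alike, 3 per gene. For spp-1 they were F07H5.3 (r = 0.99), slc-36.2 and cdr-6. For spp-8 they were lin-36 (0.97), ocam-1 and F10E9.3, and for spp-10 on its first probe set they were C15C6.2 (0.98), F37C4.6 and rhr-1. For spp-12 they were Y50D4A.4 (0.98), Y37E11AM.4 and the flavin monooxygenase gene fmo-3. For spp-14 they were F54D5.3 (0.96), the C-type lectin gene clec-1 and the nuclear receptor gene nhr-68. For spp-18 they were F22H10.3 (0.97), Y14H12A.1 and the lipase gene lipl-5. Among so many genes measured on 8 arrays, high values are found for any pattern.

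The other saposin-like genes of the family that could be tested also differed among themselves. Of 17 on the list, 11 had a probe set of their own and 6 passed the filter (spp-4, spp-15, spp-16, spp-23, spp-24 and spp-27), while spp-6, spp-7, spp-11, spp-13 and spp-19 were too dim. In fasting 2 of 6 fell and 0 rose, while 2.88% of all tested probe sets were called lower and 0.431% higher. spp-23 read 21.4 in drsh-1, 27.4 in ain-1, 24 in daf-16 and 23.5 in wild type fasting, and 65.3, 174, 239 and 98.2 in the same strains fed, so that its fasting and fed arrays did not overlap (−1.86 ± 0.24, limma adjusted p = 0.015).

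spp-4, a neighbour of spp-5, read 19.5 in drsh-1, 50.3 in ain-1, 42.1 in daf-16 and 48.9 in wild type fasting, and 44.0, 187, 312 and 387 in the same strains fed (−1.88 ± 0.31, adjusted p = 0.028). In drsh-1 it was also lower than in wild type (−1.81 ± 0.44, adjusted p = 0.044), as was spp-16 (−1.01 ± 0.19, adjusted p = 0.022). spp-27 went the other way, at 105 fasting and 94.2 fed in drsh-1 against 26.6 and 16.1 in wild type (1.64 ± 0.14, adjusted p = 0.0022). spp-31, which was not on the list and was looked at after its values were seen, was higher in fasting in all 4 strains but not called (0.80 ± 0.25, adjusted p = 0.098).

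Lysozymes, which are enzymes, are another group of antibacterial proteins of the intestine. In fasting 1 of 11 tested lysozyme genes rose and 5 fell, and among those called the 4 largest changes were those of ilys-5 (−4.96 ± 0.27), lys-2 (−3.89 ± 0.22), lys-7 (−3.46 ± 0.33) and lys-1 (−2.29 ± 0.22), with limma adjusted p from 0.00087 to 0.0052. ilys-3 had a mean change of 2.70 and was not called. In drsh-1 4 rose and 4 fell. For each list in this paragraph, the shares over all tested probe sets in fasting were 0.431% called higher and 2.88% lower. In drsh-1 these shares were 7.98% higher and 3.74% lower. A further list held genes of the p38 MAP kinase pathway, transcription factor genes and the insulin signalling genes daf-2, age-1 and akt-1. Of its 18 tested genes 0 were called in fasting, and 3 rose in drsh-1. These 3, named after their values were seen, were the phosphatase gene vhp-1 (1.67 ± 0.23, adjusted p = 0.0078), the MAP kinase kinase gene sek-1 (1.17 ± 0.29, adjusted p = 0.049) and the transcription factor gene zip-2 (0.99 ± 0.24, adjusted p = 0.044). Of 10 tested DBL-1 pathway genes 0 were called in fasting and 3 rose in drsh-1, namely lon-1 (1.72 ± 0.28, adjusted p = 0.013), sma-9 (1.0 ± 0.24, adjusted p = 0.044) and sma-4 (0.69 ± 0.16, adjusted p = 0.038), also named after their values were seen.

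Some markers of the intestine moved with food as well. Of 10 tested intestinal genes 4 fell in fasting (ifc-2, act-5, ges-1 and ifb-2, log2 changes −1.67 to −0.67) and 0 rose. Over all tested probe sets 2.88% were called lower and 0.431% higher. The rest of the 10 were not called, and pept-1 (0.11 ± 0.19) and mtl-2 (0.05 ± 0.26) had changes above 0. The summed intensity of the 10 genes was 3120 to 6993 on the fasting arrays and 4372 to 6131 on the fed arrays, with none of them at 0. The metallothionein gene mtl-2 gave much of that sum. Without it, a choice made after the values were seen, the other 9 genes summed to 1467 to 1903 on the fasting arrays and 2552 to 3314 on the fed arrays, which did not overlap. elt-2, the gene for the main intestinal GATA factor, read 79.95 to 96.8 fasting and 101 to 130.2 fed (−0.34 ± 0.11, limma adjusted p = 0.10). In drsh-1 1 of the 10 was called lower than in wild type (ges-1, −1.38 ± 0.18, limma adjusted p = 0.0063), while 3.74% of all tested probe sets were. The sums were 3120 fasting and 4372 fed in drsh-1 against 4161 and 6131 in wild type. Without mtl-2 they were 1903 and 2568 in drsh-1 against 1467 and 3001 in wild type, higher in drsh-1 fasting and lower fed. The part of these markers in the caenopore differences was not tested.

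Among other tissues, 5 of 7 tested body wall muscle genes and 2 of 6 hypodermal genes fell in fasting, with 0 of 8 pharyngeal, 0 of 9 neuronal and 0 of 8 germline genes called. The share of all tested probe sets called lower was 2.88%. The summed muscle list was 1242 to 2435 on the fasting arrays and 2713 to 6063 on the fed arrays, and the hypodermal list 501 to 1509 and 1100 to 3530. Most of the hypodermal sum came from dpy-13 and col-19, the 2 called (−1.42 and −1.76). The rest (wrt-2, bli-1, dpy-7 and rol-6) changed by −0.30 to −0.03. In drsh-1 1 muscle gene was higher and 2 were lower than in wild type, 2 hypodermal genes were lower, and 0 of the pharyngeal, neuronal and germline genes were called. Of all tested probe sets 7.98% were called higher and 3.74% lower there. The part of these lists in the caenopore differences was not tested.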

How the data were processed

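The deposited values are array intensities on a linear scale, 1 table with 8 columns and 22625 probe sets. Per the labels, Trizol extraction was followed by labelling with biotin in 3′ in vitro transcription. No source used here says how the authors summarised and normalized the intensity values or treated background. The number of arrays limits the precision.

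The 77 control probe sets were left out. The rest were used as log2(intensity + 16), and the 30% with the lowest mean (an intensity of about 15.7) were left out. Symbols came from the platform annotation, updated by Entrez number to RefSeq names of WBcel235 (20701 of 20766 probe sets with 1 symbol matched). 887 probe sets had several symbols and 895 were not listed. A gene's brightest probe set stands for it. The named genes were all members, the 3 most correlated genes for each, the called genes of the lists (up to 4 by fasting change, and all on the family list) and the targeted genes. Members and lists were chosen with earlier results of these data known.

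The additive model (strain plus food, 3 residual degrees of freedom, prior 3.72) was run in limma 3.58.1 (R 4.3.3; eBayes, mean-variance trend) and tested on simulated data. Food was compared with strain as a block, since each strain gave 1 fasting and 1 fed array. The fasting change of a strain was set against the other 3 with 2 residual degrees of freedom. Alternatives were no filter, quantile normalization, centring, pseudocounts of 1 and 64, no trend, arrayWeights, strain or food left out, single pairs left out, a 3-fold threshold and a gene's other probe sets. The sum of intestinal markers without mtl-2 was added after seeing the data. Sequences were not used here.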

Additional observations from a re-analysis of the deposited data

Results flagged for a closer look

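Among the 10 member and 3 shared probe sets, 7 had fasting changes, as log2 differences of 1 fasting and 1 fed array, that ran in opposite directions in 2 strains. The other saposin-like genes were not scanned for this. The share of all tested probe sets with such mixed directions was not counted, and 18.2% were lower in fasting in all 4 strains. The difference between those 2 strains was not tested. The related test of a strain's change against the other 3 strains called 0 probe sets in limma. The widest gap was that of spp-18, 2.37 between drsh-1 (0.07) and ain-1 (−2.30). For spp-12 it was 1.53 between the same strains, and for the main probe set of spp-1 it was 1.38 between daf-16 (0.60) and drsh-1 (−0.78). The probe set annotated to spp-5 and T08A9.13 had a gap of 1.16 between daf-16 and drsh-1. The gaps were 0.301 for the second and 0.182 for the first probe set of spp-10, and 0.236 for the dim probe set of spp-1. Such a gap involves 4 arrays. At the median residual SD of all probe sets (0.147), its SD would be 0.293 for 2 strains fixed in advance. The gaps listed are instead the widest among the strains. The residual SD was 0.773 for spp-18, 0.516 for spp-12, 0.417 for the main spp-1 probe set and 0.338 for spp-5 and T08A9.13. It was 0.100 and 0.060 for the second and first spp-10 probe sets and 0.074 for the dim spp-1 one. The gaps are therefore not to be read as multiples of 0.293.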

How the results depend on the processing

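Over single probe sets and alternatives, 539 values kept direction and side of the threshold, 47 lost a call, 16 gained one and 22 changed sign. In fasting, 523 probe sets and 3 member probe sets were called. The counts were 908 over all with centring, 318 without the trend, 6342 (6 members) with arrayWeights and 129 (0 members) with no replicate block for strain. Leaving out a strain gave 97 to 3776 over all and 0 to 5 members. For drsh-1 (1850 and 5) they were 553 and 0 without food in the model, 1824 and 3 without the filter and 1875 and 2 without the trend. Leaving out arrays gave 940 to 2508 and 2 to 5. For ain-1 (8 and 0) they were 5 without the trend, 497 (2 members) with arrayWeights, 1 without food, and 0 to 5 with arrays left out. For daf-16 (0) they were 1 without the filter, 4 with centring, 2 with a pseudocount of 1 and 0 to 1 with arrays left out. Its response test gave 1 with centring or a pseudocount of 64.

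At 3-fold, member probe sets lower in fasting were 1 in drsh-1 (0.513% of all probe sets), 1 in daf-16 (1.59%) and 2 in wild type (1.65%), and in ain-1 against wild type 0 fasting and 0 fed (0.133% each). With a pseudocount of 64 they were 1 in drsh-1 (0.741%) and 3 in daf-16 (2.89%), and with quantile normalization 2 in drsh-1 (0.995%). Fasting ain-1 against wild type gave 0 with a pseudocount of 64 (0.374%), 2 with a pseudocount of 1 (0.938%) and 2 with quantile normalization (0.741%).

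Most sign changes were of small values. With quantile normalization, the second spp-10 probe set gave 0.0487 in fasting and spp-1 gave −0.0318 in daf-16. In daf-16, centring gave −0.0159 and −0.0163 for the spp-1 probe sets and −0.0083 for spp-12, which gave −0.0361 with a pseudocount of 1. With a strain left out, fasting values ranged from −0.0581 to 0.0424 for the second spp-10 probe set and from −0.252 to 0.208 for spp-1. With arrays left out, drsh-1 values of spp-18 ranged from −1.59 to 0.66. In ain-1 the ranges were −0.0468 to 0.125 for the second spp-10 probe set, −0.0346 to 0.975 for spp-12, −0.0050 to 0.332 for spp-14 and −0.285 to 0.119 for spp-1. In daf-16 they were −0.178 to 0.205 for spp-1, −0.0111 to 0.0371 for its dim probe set, −0.419 to 0.461 for spp-12, −0.109 to 0.193 for the third spp-10 probe set and −0.362 to 0.0768 for spp-14. For the shared probe sets they were −0.421 to 0.124 (spp-5 and T08A9.13) and −0.179 to 0.871 (spp-9 and spp-21). Fits with a lone array per strain assume that it varies like the others. Centring moved the median of all probe sets in drsh-1 by −0.127. The cause of these changes was not tested. With 1 array per group, small changes of dim probe sets such as spp-12 could not be resolved.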
